A study of Homo sapiens with 9 samples.

Results

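Cytosolic ribosomal protein genes were taken as the genes whose symbol in the platform annotation reads RPL, RPS, RPLP or RPSA in the form used for the core proteins of the cytosolic ribosome, and only probe sets that the annotation ties to exactly 1 symbol were used. The rule found 71 genes of 19426, 45 for the large subunit and 26 for the small subunit, read by 1148 probe sets. Of these, 68 genes had at least 3 probe sets above the filter on dim signal and were tested, 44 for the large and 24 for the small subunit. RPL29, RPS12 and RPS26 had 2 such probe sets each and were not tested.

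The ribosome is built from ribosomal RNA and from proteins that are needed in near equal numbers, so their genes are among the most strongly transcribed in a dividing cell. Most of their mRNAs start with a cytosine followed by an unbroken run of pyrimidines, the 5′ terminal oligopyrimidine (TOP) motif, through which mTOR signalling and LARP1 adjust their translation together. The introns of many of them also carry small nucleolar RNAs (snoRNAs), which guide the modification of ribosomal RNA, and the genome holds many processed pseudogene copies of these short, highly expressed mRNAs.

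The arrays measured total RNA of Flip-In-293 cells, which descend from HEK293, a line of human embryonic kidney, and carry a genomic site into which transgenes can be integrated. All 3 groups carried a lentivirus with a short hairpin RNA and were grown for 10 days before RNA was isolated: the control group a non-silencing hairpin, the others a hairpin against CPSF3, the endonuclease that cuts pre-mRNA at the poly(A) site, or against RBFOX2, a splicing regulator. Each group held 3 exon arrays. The replicates are biological by their titles and technical by the series text; p-values therefore speak only of array-to-array spread, part or all of which may be technical. Both comparisons with control use the same 3 control arrays, so they are given side by side and are not independent of each other.

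The CPSF3 transcript was not lower in its own group: 9.33, 9.29 and 9.80 on the control arrays and 9.60, 9.27 and 9.27 on the arrays labelled CPSF3 knockdown, a change of -0.09 ± 0.16 (SE, adjusted p = 0.752). The RBFOX2 transcript changed by -0.58 ± 0.12 in its group (adjusted p = 0.0617), with all 3 arrays below all controls. Of 10 genes fixed as markers of HEK293 cells, 9 were measured and 5 lay above the median of all genes. Among these 5 were VIM, KRT8, NEFL and ENO2, which were also called lower on the arrays labelled CPSF3 knockdown. PAX2, LHX1, EYA1 and NEFM lay below that median. ENO2 was called lower with the RBFOX2 hairpin too, and the part of these markers in the results was not tested. Genes of blood cells, endothelium and fibroblasts had median levels of 8.49, 7.95 and 8.09, below the all-gene median of 8.76. Single genes of these lists did lie above it (2 of 4, 1 of 3 and 1 of 4 measured), the highest at 9.00, 9.25 and 9.04. None of them was called in any comparison (0 of 4, 0 of 3 and 0 of 4 measured). Values are log2 probe set signals, a gene's level is the median of its probe sets, and "called" means an adjusted p below 0.05 in limma over all 16748 measured genes.

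The annotated starts of genes that recur below are shown with 10 bases before the start and 20 from it, because the first bases decide whether an mRNA can carry the TOP motif. Sequences and coordinates are from RefSeq, build GRCh38.p14. Capitals mark an unbroken run of C and T that begins with C exactly at the annotated start and is at least 5 bases long; windows without capitals have no such run at that base.
RPL37A (chr2:216498834-216498863, plus strand): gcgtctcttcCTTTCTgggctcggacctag
RPL41 (chr12:56116623-56116652, plus strand): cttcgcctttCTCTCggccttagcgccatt
RPL27A (chr11:8682782-8682811, plus strand): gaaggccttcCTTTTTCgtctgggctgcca
RPS6 (chr9:19380217-19380246, minus strand): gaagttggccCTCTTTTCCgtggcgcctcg
RPS24 (chr10:78033853-78033882, plus strand): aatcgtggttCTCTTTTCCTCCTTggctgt
RPL17 (chr18:49492446-49492475, minus strand): ttccctaagcagcctgaggtgagtgtttct
RPL32 (chr3:12841546-12841575, minus strand): acgacccatcagcccttgcgcgccaccgtc
RPS28 (chr19:8321486-8321515, plus strand): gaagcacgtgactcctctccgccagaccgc

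The promoter table held 61 of the 71 genes, and 45 of them (73.8%) had such a run at an annotated start. Of the 12913 protein-coding genes in the table that also had a gene level here, 875 (6.78%) did. Counted over starts, the shares were 60.8% and 4.77%. Only the first base and the 4 that follow were searched, on the transcribed strand, so no match says only that these letters do not stand at that annotated base. Small nucleolar RNA genes lay inside 26 of the 71 genes (36.6%), against 2.98% of the 15825 protein-coding genes with a gene level. The member counts include RPL29, RPS12 and RPS26, which were not tested.

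Ribosomal protein genes were among the brightest on the control arrays. The large subunit median was 11.86 and the small subunit median 11.95, where the median of all genes was 8.73, and 42 of 44 and 22 of 24 genes lay above the upper quartile of all genes (9.36). RPL19, a large subunit protein, had the highest level of its subunit at 13.38 ± 0.14 (SD, n = 3), and RPL23 the lowest at 8.55 ± 0.03. In the small subunit, RPS28 was highest at 13.38 ± 0.06, nearly level with RPS2 at 13.38 ± 0.09, and RPS7 was lowest at 8.99 ± 0.48. These levels also depend on which probe sets a gene has: the 68 genes had between 3 and 66, with a median of 14, and signals of different probe sets are not on a common scale.

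The control arrays were not alike for these genes. The median level over the 68 genes was 12.02, 11.97 and 11.66 on control arrays 1, 2 and 3, 11.72, 11.68 and 11.61 on the arrays labelled CPSF3 knockdown, and 11.55, 11.75 and 11.73 on the RBFOX2 knockdown arrays. Control array 3 lay below both other controls in 62 of the 68 genes (91.2%), against 25.3% of all genes, and its median distance from their mean was -0.28, against 0.07 over all genes. It thus stood near the hairpin arrays, and the main counts are also given without it. Without that array the median change of the 68 genes was -0.41 with the CPSF3 hairpin (0.02 over all genes) and -0.34 with the RBFOX2 hairpin (0.04 over all genes). The genes with the largest changes with the CPSF3 hairpin then stood at -1.44 for RPL17, -1.47 for RPL32, -1.22 for RPL37A, -1.17 for RPS15A and 1.30 for RPL27A. Leaving out another single array instead made them smaller, down to -1.05, -0.68, -0.77, -0.75 and 1.03 in the same order. Measured against control array 3 alone, the mean of the arrays labelled CPSF3 knockdown was lower in 46 of 68 genes (67.6%, all genes 51.6%) and that of the RBFOX2 arrays in 42 (61.8%, all genes 55.1%).

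**Figure D1:**
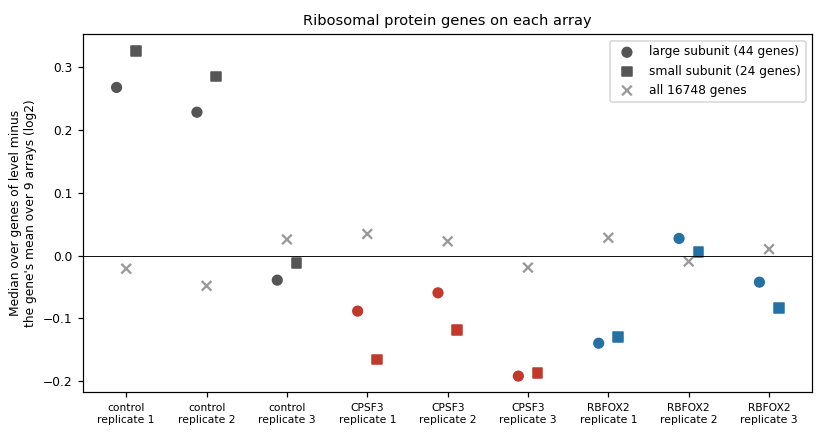
For each array, the median over large subunit genes (circles), small subunit genes (squares) and all 16748 genes (crosses) of a gene's level minus its own mean over the 9 arrays, in log2 units, with arrays on the horizontal axis. Both subunits stand 0.23 to 0.33 above their own mean on control arrays 1 and 2 and between -0.19 and 0.03 on the other 7 arrays, while all genes stay between -0.05 and 0.03.

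On the arrays labelled CPSF3 knockdown, most ribosomal protein genes stood somewhat lower than in control. In the fit, 62 of 68 changes were below 0, where 48.4% of all genes were, and the median change was -0.28 against 0.01 over all genes. In bulk RNA, a loss in every cell and a loss in some of them cannot be told apart. Called genes numbered 16: 15 fell and 1, RPL27A, rose. Over all genes 14.4% were called, 4.38% lower and 10% higher, and the members' shares were 22.1% lower and 1 of 68 higher. At an unadjusted p below 0.05, 35 were lower (background 9.76%). In 25 genes (36.8%) all 3 arrays lay below all 3 controls, against 13.2% of all genes. The count of calls depended on the arrays used: 33 were called without control array 3 (32 lower, background 20.5%), 4 without control array 1 (background 6.46%), 8 without control array 2 (background 7.19%), and 7, 10 and 8 without arrays 1, 2 and 3 labelled CPSF3 knockdown (background 5.76%, 8.75% and 9.94%). The 4 genes called in each of these fits were RPL17, RPL37A, RPS15A and RPL27A.

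**Figure D2:**
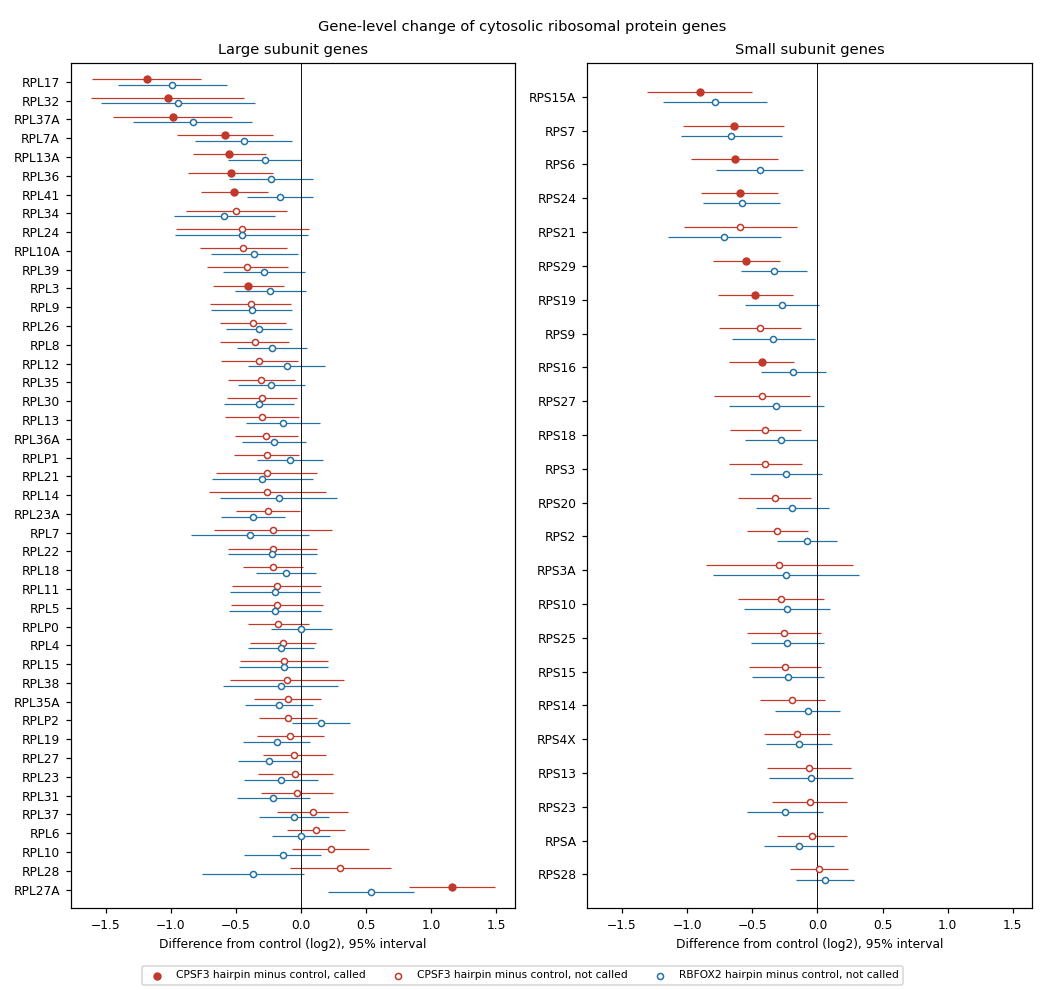
Change of each of the 68 genes from control in log2 units with its 95% interval, large subunit at left and small subunit at right, ordered by the change on the arrays labelled CPSF3 knockdown (red; RBFOX2 knockdown in blue; filled points are called). Red changes run from -1.18 (RPL17) to 1.16 (RPL27A), and most points of both colours lie left of 0.

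Large subunit genes had a median change of -0.26, with 8 of 44 called lower and 1 higher. RPL17, which lines the peptide exit tunnel of the large subunit, read 11.88, 11.91 and 11.13 on the control arrays, 10.58, 10.52 and 10.27 on the arrays labelled CPSF3 knockdown, and 10.52, 10.97 and 10.49 on the RBFOX2 knockdown arrays. Both hairpin groups lay wholly below the controls, and control array 3 was the lowest control. Its change with the CPSF3 hairpin was -1.18 ± 0.20 (95% interval -1.60 to -0.77, adjusted p = 0.00307), or 2.27-fold lower. With each probe set centred on its own mean before the median was taken, an alternative described with the probe sets, the change was -0.30 and the call was lost.

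RPL37A, a zinc-binding protein of the large subunit whose start carries the run shown above, read 11.29, 11.16 and 10.52 in control, 10.28, 10.15 and 9.58 with the CPSF3 hairpin and 10.32, 10.27 and 9.88 with the RBFOX2 hairpin. The hairpin arrays again lay below all controls without overlap. The change with the CPSF3 hairpin was -0.99 ± 0.21 (adjusted p = 0.00933), and it stayed called in all 21 further settings of the analysis, with -0.45 when probe sets were centred.

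RPL32, another large subunit protein, showed the widest spread among controls, at 10.68, 10.21 and 9.10, against 9.11, 8.92 and 8.88 with the CPSF3 hairpin and 9.06, 9.01 and 9.09 with the RBFOX2 hairpin. Control array 3 sat among the CPSF3 hairpin arrays, so these groups overlap. The change was -1.02 ± 0.27 (adjusted p = 0.0249), and the call was lost in 8 of 21 settings, which include leaving out control array 1 or 2 or any array labelled CPSF3 knockdown.

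The other falls in the large subunit were smaller. RPL7A, one of the genes with snoRNAs in its introns, changed by -0.58 ± 0.17 (adjusted p = 0.0381) and RPL13A, also a component of an interferon-induced complex that silences translation, by -0.55 ± 0.13 (adjusted p = 0.0144). RPL36, RPL41, the smallest ribosomal protein, and RPL3, which reaches close to the peptidyl transferase centre, changed by -0.54, -0.51 and -0.41. The call of RPL3 was lost in 10 of 21 settings, among them leaving out control array 1 or 2 or any array labelled CPSF3 knockdown. In each of these 5 genes all arrays labelled CPSF3 knockdown lay below all controls.

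RPL27A, a core protein of the large subunit, went the other way. It read 8.94, 8.91 and 9.33 in control, 10.47, 10.13 and 10.06 with the CPSF3 hairpin and 9.75, 9.37 and 9.68 with the RBFOX2 hairpin, so that all hairpin arrays lay above all controls. The change was 1.16 ± 0.15 with the CPSF3 hairpin (adjusted p = 0.0012) and 0.54 ± 0.15 with the RBFOX2 hairpin (adjusted p = 0.157). At the level of single probe sets the rise belongs to a few of them, as described with the probe sets.

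Small subunit genes had a median change of -0.36, with 7 of 24 called lower and none higher. RPS15A, a core protein of the small subunit, read 10.65, 10.54 and 9.80 in control, 9.31, 9.51 and 9.44 with the CPSF3 hairpin and 9.41, 9.75 and 9.46 with the RBFOX2 hairpin. No hairpin array reached the lowest control. Its change with the CPSF3 hairpin was -0.91 ± 0.19 (adjusted p = 0.00754), called in all 21 further settings, with -0.46 when probe sets were centred.

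RPS6, the small subunit protein that S6 kinases phosphorylate downstream of mTOR, read 11.41, 11.31 and 11.01 in control and 10.67, 10.58 and 10.59 with the CPSF3 hairpin. The 2 groups did not overlap, while the RBFOX2 arrays, at 10.66, 11.17 and 10.58, reached into the control range. The change with the CPSF3 hairpin was -0.63 ± 0.16 (adjusted p = 0.0168).

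RPS24, which is mutated in some families with Diamond-Blackfan anaemia, read 10.17, 9.99 and 9.73 in control, 9.56, 9.33 and 9.21 with the CPSF3 hairpin and 9.45, 9.46 and 9.23 with the RBFOX2 hairpin. Neither hairpin group overlapped the controls. The change with the CPSF3 hairpin was -0.60 ± 0.14 (adjusted p = 0.0125).

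RPS7, which can also bind MDM2, read 9.32, 9.21 and 8.44 in control and 8.29, 8.46 and 8.29 with the CPSF3 hairpin, so control array 3 fell within the hairpin range. Its change was -0.64 ± 0.18 (adjusted p = 0.0307), and the call was lost in 9 of 21 settings, among them leaving out control array 1 or 2 or any array labelled CPSF3 knockdown. RPS29, RPS19 and RPS16 changed by -0.55, -0.48 and -0.43, each without overlap; RPS19 is the gene most often mutated in Diamond-Blackfan anaemia.

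**Figure D3:**
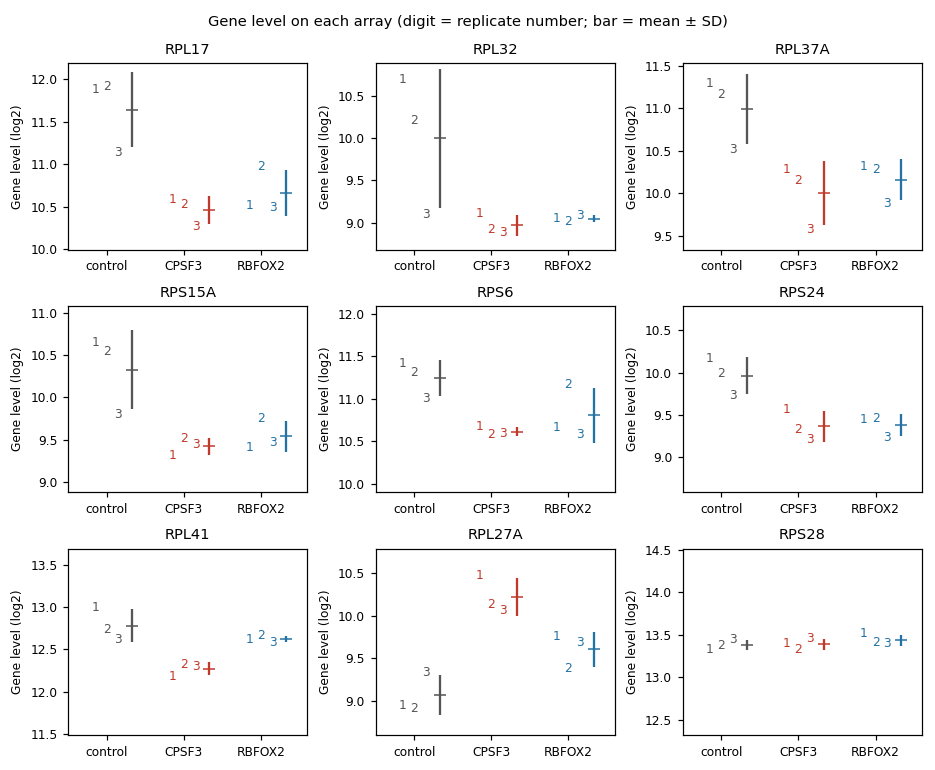
Gene level on every array (log2, vertical axis) for 9 ribosomal protein genes in the 3 groups, with each digit giving the replicate number and the bar the mean ± SD of 3 arrays. Control array 3 lies nearest to the hairpin arrays in RPL17, RPL32, RPL37A and RPS15A, and RPS28 stays between 13.32 and 13.51 throughout.

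Outside the called genes, gene-level changes were small in several well-known groups. The stalk proteins RPLP0, RPLP1 and RPLP2, which recruit elongation factors to the large subunit, changed by -0.18, -0.26 and -0.10 with the CPSF3 hairpin, and none was called. RPLP2 changed least of these with the CPSF3 hairpin, at 12.53, 12.54 and 12.56 in control and 12.36, 12.43 and 12.55 with that hairpin. The 95% interval of the change ran from -0.32 to 0.13. Its RBFOX2 arrays, at 12.64, 12.71 and 12.75, lay above all control and CPSF3 hairpin arrays. The difference between the hairpin groups was -0.25 (95% interval -0.48 to -0.03) and was not called by limma (adjusted p = 0.313). RPL5 and RPL11, which bind the 5S ribosomal RNA and can block MDM2, changed by -0.18 ± 0.16 and -0.19 ± 0.16, and both had arrays within the control range. Single probe sets of RPL5 varied more. Of its 27, 5 were lower by 1 or more with the CPSF3 hairpin and 5 with the RBFOX2 hairpin, down to -1.60 and -1.90. None of these was called, and its brightest probe set changed by 0.01 with the CPSF3 hairpin.

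At the ring around the tunnel exit, 5 genes were measured and none called, with changes from -0.37 to -0.03. RPS2 and RPS3 at the mRNA entry site changed by -0.31 and -0.40, with adjusted p of 0.0734 and 0.0537. RPS10, in the beak of the small subunit, changed by -0.28, and RPS15 and RPS23, which reach the decoding site, by -0.25 and -0.06; none of them was called. RPS28 read 13.33, 13.37 and 13.44 in control and 13.39, 13.32 and 13.45 with the CPSF3 hairpin, and its 95% interval of -0.21 to 0.23 holds 0. At the wall of the exit tunnel RPL17 was called, and RPL39 (-0.41) and RPL4 (-0.14) were not. Which genes of these role groups were called turned with the setting. Without control array 3, RPL17, RPL39, RPL26 and RPL35 of the tunnel exit ring, and RPS2 and RPS3 were called, and with centred probe sets RPL39 and RPL26 were, and RPL17 was not.

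The 3 genes with too few probe sets were not tested. The mean of the 2 probe sets of RPS26, a protein at the mRNA exit, was 9.22, 8.92 and 9.69 in control and 10.55, 9.97 and 9.94 with the CPSF3 hairpin, with every array labelled CPSF3 knockdown above every control. RPL29 read 10.68, 10.33 and 10.12 in control and 10.09, 9.94 and 9.90 with the CPSF3 hairpin. RPS12 read 9.29, 9.13 and 9.33 in control and 8.99, 8.66 and 8.65 with the CPSF3 hairpin. In RPL29 and RPS12 every array labelled CPSF3 knockdown lay below every control, as in 13.2% of all tested genes. The share of tested genes wholly above control is not given.

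With the RBFOX2 hairpin most genes also stood below the same controls, and none was called. Changes were below 0 in 64 of 68 genes, against 44% of all genes, with a median of -0.23 against 0.03 over all genes. The limma test called 0 members, where 0.173% of all genes were called; at an unadjusted p below 0.05 there were 18 lower and 1 higher, and the background was 5.06% lower. In 14 genes all arrays lay below all controls and in 2 above, where 7.05% and 7.07% of all genes did. The smallest p belonged to RPL17, at -0.99 ± 0.20 (adjusted p = 0.0617). Without control array 3, 13 were called lower and RPL27A higher, where 2.2% of all genes were called lower and 9.23% in all. With each array given a weight from its fit, 14 were called in this comparison and 41 with the CPSF3 hairpin, where all genes gave 9.03% and 28.8%.

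Between the 2 hairpin groups no ribosomal protein gene was called, where 0.4% of all genes were, and 2 were lower and 3 higher at an unadjusted p below 0.05 (background 5.36% and 7.93%). The median difference, arrays labelled CPSF3 knockdown minus RBFOX2 knockdown, was -0.05. The largest was that of RPL28, a large subunit protein, which read 11.01, 10.43 and 10.45 with the CPSF3 hairpin and 10.17, 9.61 and 10.10 with the RBFOX2 hairpin. These arrays did not overlap, and the difference was 0.67 ± 0.18 (adjusted p = 0.148). RPL27A differed by 0.62 ± 0.15 (adjusted p = 0.116) and RPL41 by -0.35 ± 0.12 (adjusted p = 0.224). Leaving out control array 3, which alters only the estimate of the spread here, brought 1 call, RPL27A. The share of all genes called in that fit is not given.

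Large and small subunit genes were also compared within each array. The large minus small subunit median was -0.17, -0.02 and -0.12 on the control arrays, -0.13, 0.03 and 0.02 on the arrays labelled CPSF3 knockdown and -0.16, -0.02 and 0.04 on the RBFOX2 knockdown arrays. Group means were -0.10 ± 0.07, -0.03 ± 0.09 and -0.05 ± 0.10 (SD, n = 3), so the groups differed by no more than about the spread within them. Array 1 had the lowest value in each group, so part of that spread may go with the replicate number. Differences between same-numbered arrays were not tested. The sign of the group difference turned with the way gene levels were formed.

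Single probe sets within a gene gave a wide range of changes. The test of their departure from the gene level, given with its limit after the single genes, made no call with all arrays. Of 1082 kept probe sets, 940 (86.9%) were lower with the CPSF3 hairpin, against 52.2% of all probe sets, and 19 were called lower and 4 higher. The background of calls was 1.6%, with 0.588% lower and 1.01% higher. RPL41 held 7 of the calls, RPS6 and RPS24 3 each, RPL37A 2, and RPL17, RPS15A, RPS16 and RPS9 1 each, while the 4 rises were all in RPL27A. The count depended on the arrays used. Without control array 1 or 2 or array 1 or 3 labelled CPSF3 knockdown limma called 0, and without array 2 it called 1, where 106 to 279 of all 692116 probe sets were called in these 5 fits. Without control array 3 it called 138, where 5.85% of all probe sets were called, and 98 with the RBFOX2 hairpin (background 2.73%). With the RBFOX2 hairpin 950 (87.8%) were lower, against 48.5% of all probe sets, and none was called (background 0.000433%).

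Large changes in both directions gathered in the dimmer probe sets. With the probe sets divided by mean signal over all arrays into 3 sets of near equal size, the dim set (up to 10.19) held 29 of the 34 probe sets that were lower by 1 or more with the CPSF3 hairpin, which is 8.03% of that set, the middle set 2 and the bright set (12.45 to 14.46) 3. All 6 probe sets that were higher by 1 or more were in the dim set too. Over all probe sets on the array, 0.655% were lower by 1 or more. The median change was -0.28, -0.31 and -0.15 in the dim, middle and bright sets, and -0.32, -0.25 and -0.09 with the RBFOX2 hairpin. Over all 68 genes the median gene-level change was -0.28 and the median change of each gene's brightest probe set -0.15. For the 15 genes called lower, which were chosen by their gene-level change, these were -0.58 and -0.25. What the dim and bright probe sets of a gene read, such as introns, exons or pseudogene copies, was not tested, since probe positions and sequences were not used here.

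RPS6 shows both kinds. Its brightest probe set, ps3200726, read 13.75, 13.79 and 13.71 in control and 13.64, 13.79 and 13.51 with the CPSF3 hairpin, a change of -0.10 that was not called. Its probe set ps3200732 read 11.39, 11.46 and 10.48 in control, 9.53, 9.55 and 9.58 with the CPSF3 hairpin and 9.72, 10.22 and 9.64 with the RBFOX2 hairpin. That is a called fall of 1.56 with the CPSF3 hairpin (adjusted p = 0.0208), in a gene whose level fell by 0.63.

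RPL17 and RPL32 gave their large gene-level falls through a few probe sets. For RPL17 the gene level was that of 1 probe set, ps3807504 at -1.18, which stood in the middle of its 9 probe sets by signal, and the 4 brightest changed by -0.11 to -0.32. The median of the 9 changes was -0.29. For RPL32, ps2663365, ps2663366 and ps2663367 changed by -1.51, -1.34 and -1.41, none of them called, while the brightest, ps2999910, changed by -0.10 and the median of 16 was -0.17. In both genes the brightest probe set (ps3294166 in RPL17) has a number far from those of the falling probe sets named here. Whether they read the same transcript was not tested. When each probe set was first centred on its own mean, an alternative added after the data were seen, RPL17 changed by -0.30 (adjusted p = 0.133) and RPL32 by -0.24 (adjusted p = 0.138). Under that alternative 21 members were called lower and none higher, where 6.26% of all genes were called lower and 19.1% in all.

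The rise of RPL27A likewise came from a few of its 18 probe sets. Probe sets ps3319614, ps3319615, ps3319618 and ps3319619 rose by 1.59, 1.18, 1.47 and 2.17, all called, and 11 of the 18 were lower. The last of these read 8.15, 8.20 and 9.23 in control, 10.93, 10.50 and 10.65 with the CPSF3 hairpin and 9.41, 9.36 and 9.91 with the RBFOX2 hairpin. The brightest, ps3319598, changed by -0.32. With centred probe sets the gene-level change was -0.02 (adjusted p = 0.906), and with only probe sets above the upper quartile it was 0.21 (adjusted p = 0.39), so the sign and the call at gene level depend on how the probe sets are combined.

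RPL41 differed from these genes in that its called probe sets were bright. The 7 called lower, at mean signals near 12.7, changed by -0.92 to -1.02, and the brightest of them, ps3465758, changed by -0.99 ± 0.17. The other 10 changed by -0.17 to -0.58, although 7 of these also had mean signals above 12.4. RPL41 has probe sets with near-equal values at widely separated probe set numbers, and sharing of sequence between them was not tested.

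**Figure D4:**
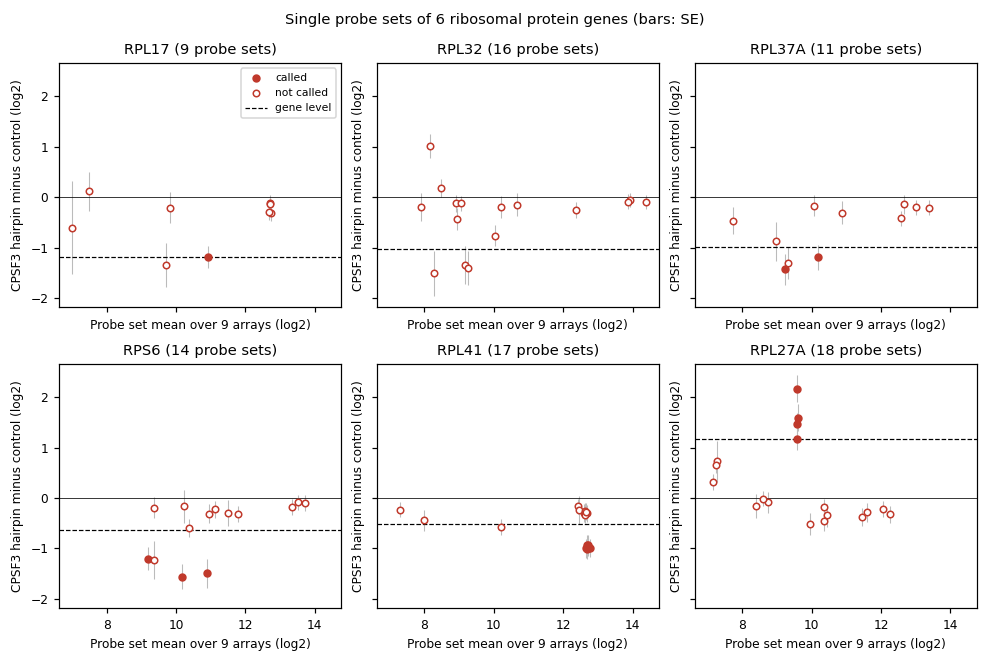
Single probe sets of 6 genes, with mean signal over 9 arrays on the horizontal axis and the change on the arrays labelled CPSF3 knockdown on the vertical axis, both in log2 units (bars, SE; filled points are called; dashed line, gene-level change). In RPL17, RPL32, RPL37A and RPS6 the falls of 1 or more lie between signals of about 8 and 11 and the brightest probe set of each changed by -0.32, -0.10, -0.21 and -0.10, in RPL41 the falls are bright, and in RPL27A 4 probe sets near 9.6 rise.

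Signal of a probe set relative to its gene level gave 0 calls in 1069 probe sets of these genes for either comparison with control by limma. Over all genes it also gave 0 (background 0%); at an unadjusted p below 0.05 the share was 16.8% with the CPSF3 hairpin, against 12.7% over all genes, and 12.7% with the RBFOX2 hairpin, against 7.88%. The smallest adjusted p was 0.0603. Without control array 3 there were 53 and 20 calls, where 1.49% and 0.32% of all probe sets tested were called. The gene level is the median of the same probe sets, so a probe set that sets it, as in RPL17, shows no departure. In RPL32 and RPL27A a few probe sets carried the gene-level change, and departures were measured against that level. The 0 calls with all arrays therefore do not show that no exon departs.

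Median changes of genes with and without these sequence features lay close together. The 43 tested genes with a pyrimidine run at the start had a median change of -0.29 with the CPSF3 hairpin, with 9 called lower and 1 higher, and the 15 without it -0.25, with 5 called lower. The 832 other genes with such a start had a median of -0.02. The 25 tested members with a snoRNA gene inside had a median of -0.29 and the 43 without -0.28, and 447 snoRNA host genes outside the family had 0.08. RPL17 and RPL32, with no run at their annotated starts, and RPL37A, with one, thus stood side by side among the largest falls. Annotated pseudogenes ranged widely, with 52 for RPL17, 40 for RPS15A, 37 for RPL32, 9 for RPL37A and 7 for RPL27A, and how far their copies add to a probe set's signal was not tested.

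Other mRNAs known to carry a TOP motif, such as those of elongation factors, were counted in the same way. Of 16 measured, 14 were lower with the CPSF3 hairpin with a median of -0.19, where 48.4% of all genes were lower. Only 1 was called (6.25%), near the 4.38% of all genes called lower. It was VIM, which encodes the intermediate filament vimentin and is also among the HEK293 markers, at -1.05 ± 0.12 (adjusted p = 0.000546). EEF1A1 and EEF2, the main elongation factors, changed by -0.06 and -0.24 and were not called. Among 7 measured paralogues outside the rule, RPL7L1 rose, from 9.78, 9.46 and 10.23 in control to 10.98, 10.90 and 10.87, a change of 1.09 ± 0.18 (adjusted p = 0.00273). RPL22L1, the paralogue of RPL22, changed by 0.53 ± 0.14 (adjusted p = 0.0252), a call lost in 5 of 20 settings, which include leaving out control array 1 or 2 or array 1 or 3 labelled CPSF3 knockdown.

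Of 14 measured genes that regulate ribosomal protein transcription or translation, 6 were lower and 8 higher with the CPSF3 hairpin, and 2 were called lower and 4 higher, where 4.38% and 10% of all genes were. DDIT4, an inhibitor of mTOR complex 1, was at 9.95 ± 0.13 in control, 8.14 ± 0.14 with the CPSF3 hairpin and 9.05 ± 0.04 with the RBFOX2 hairpin (SD, n = 3), with no overlap between any groups. Its changes were -1.82 ± 0.12 (adjusted p = 5.37e-06) and -0.90 ± 0.12 (adjusted p = 0.00714), the second lost without control array 1 or RBFOX2 array 3. EIF4EBP1, a translation repressor under mTOR control, fell by 0.79, and LARP4, an RNA-binding protein that stabilises TOP mRNAs, and MTOR itself both rose by 0.71. EIF4EBP2, a paralogue of EIF4EBP1, rose by 0.65 (adjusted p = 0.0134), and TIA1, an RNA-binding protein that represses TOP mRNAs, by 0.60 (adjusted p = 0.0147). The call of MTOR was lost without control array 2 or array 1 labelled CPSF3 knockdown.

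All 6 dedicated partners of ribosomal proteins, the chaperones and assembly factors that accompany single proteins to the ribosome, were higher, and 4 were called, where 10% of all genes were called higher. LTV1, which assists assembly of the small subunit head, read 8.86, 8.63 and 8.82 in control and 10.10, 9.87 and 9.99 with the CPSF3 hairpin, a change of 1.22 ± 0.14 (adjusted p = 0.00059). GRWD1, the chaperone of RPL3, rose by 1.00 ± 0.17 (adjusted p = 0.00403). RPL3 itself changed by -0.41, with the call lost in the settings named above.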

How the data were processed

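Per the labels, total RNA from 9 samples of Flip-In-293 cells was read on exon arrays (Affymetrix Human Exon 1.0 ST). The authors deposited log2 signals, 1 value per probe set and array; RMA, Affymetrix Power Tools and the build hg18 stand in the submitters' processing notes, without versions. Because RMA gives every array the same distribution, a shift common to most transcripts is lost, and changes of dim probe sets are compressed. Depth has no meaning for arrays; 3 arrays per group limit the precision.

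Of 1384231 probe sets, those with a mean over 9 arrays at or above the median (6.97) were kept. Gene levels (median of at least 3 kept probe sets with 1 symbol; 2950 symbols updated through RefSeq), single probe sets (692116) and relative exon signals (257548, genes with at least 5 kept probe sets) were each fitted with limma 3.58.1 in R 4.3.3 (tables handled with version 1.17.8 of the data.table package) in 1 model of 3 groups, 2-sided, with Benjamini-Hochberg adjustment over all features at 0.05. Errors of changes are SE. With 3 arrays against 3, the smallest p of an exact permutation test is 0.1. The scripts were tested on simulated data.

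The members and all lists were chosen with earlier results of these data known, and the mitochondrial list was set after the data were seen. Full statistics go to the 8 largest falls and 5 largest rises among called members, the highest and lowest levels per subunit, the stalk and 5S RNA partners, and up to 2 called genes each way per list; probe sets and genes beyond these were chosen after their values were seen. Settings tried were the filter, normalisation, the gene level, symbols, array weights, a variance trend, a replicate block and leaving out each array. Same-numbered arrays did not deviate together throughout. For replicates 1, 2 and 3 the correlations of control with CPSF3 hairpin arrays were 0.332, 0.26 and -0.143, and the others lay between -0.0832 and 0.224. The main fit used no pairing. Array correlations lay between 0.955 and 0.987, with no duplicate. Probe sets with several symbols including a member (87) were left out.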

Additional observations from a re-analysis of the deposited data

How the results depend on the processing

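The median change of ribosomal protein genes kept its sign in all settings, from -0.41 to -0.24 with the CPSF3 hairpin and from -0.34 to -0.16 with the RBFOX2 hairpin. Counts of called genes did not: against 16 with the CPSF3 hairpin there were 25 with the mean as gene level, 41 with array weights and 4 to 33 when 1 array was left out. With the RBFOX2 hairpin, against 0, array weights gave 14, a replicate block 3 and leaving out 1 array 0 to 14; between the hairpin groups array weights gave 2 and leaving out 1 array 0 to 1. Of the 9 arrays, 4 correlated best with an array of their own number, so a pairing is neither borne out nor excluded. Relative exon signals gave 0 to 53 calls when 1 array was left out with the CPSF3 hairpin, and 0 to 20 with the RBFOX2 hairpin. Single probe sets gave 0 to 138 and 0 to 98. The highest counts came without control array 3, with the shares of all probe sets given above. The mean as gene level also brought relative exon calls with the CPSF3 hairpin, and the share over all probe sets is not given. The difference between groups in large minus small subunit median with the CPSF3 hairpin was 0.075, but -0.078 without a filter, -0.030 with the stricter filter, -0.040 with the mean and 0.27 with at least 1 probe set per gene. With the RBFOX2 hairpin it was -0.13 without a filter, against 0.057. Between the hairpin groups it was -0.096 with the mean and 0.15 with at least 1 probe set, against 0.018. RPL27A turned to -0.021 with centred probe sets. Except for the control array 3 values and the probe set rule given above, the cause was not tested.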

Other observations

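Genes of the mitochondrial ribosome, which is encoded in the nucleus but built separately, were measured on the same arrays. Of 75 measured, 53 were higher with the CPSF3 hairpin, with a median change of 0.16. By limma 9 (12%) were called higher, near the 10% of all genes, and 0 lower. At an unadjusted p below 0.05, 21 were higher and 1 lower, where 9.76% of all genes were lower. The share of all genes higher at that threshold is not given here. MRPL1 changed by 0.66 ± 0.17 (adjusted p = 0.0228). With the RBFOX2 hairpin their median was 0.03 and limma called 0, with 8 at an unadjusted p below 0.05. The difference between the cytosolic and the mitochondrial genes was not tested.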
